A study of Mus musculus with 20 samples.

Results

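The imprinted *H19* and *Igf2* locus was followed in livers of mice transgenic (tg) for *IMP2-2* and of wildtype (wt) mice. Its members here are *H19*, *Mir675* and *Igf2*, 3 genes beside 18194 genes that have a probe set of their own on the array. They were taken as every probe set whose annotation is or includes 1 of these symbols. This gave 3 of 45101 probe sets: 1448194_a_at, annotated to both *H19* and *Mir675*, and 1448152_at and 1415931_at, both annotated to *Igf2*. The members were selected on an earlier result of these same arrays, the difference between genotypes, in which the *H19* and *Mir675* probe set had the largest rise. Their differences between genotypes are therefore given as a description and without a test.

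Livers of 10 tg and 10 wt mice were read on 1 Affymetrix mouse expression array each. All mice were 5 weeks old, untreated and of a mixed C57Bl6J/DBA2 background. Tg mice carry *IMP2-2*, also named p62, a splice variant of the mRNA binding protein encoded by *Igf2bp2*, and the series title gives the transgene as liver-specific. The sex of the mice and the promoter that drives the transgene are not given in the sources used here.

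Values are log2 signals after RMA, in which 1 unit is a doubling, and the median of all probe set means was 4.53. Array medians ran from 4.46 to 4.55. limma called 850 probe sets higher and 299 lower in tg livers at an adjusted p below 0.05, which is 1.88% and 0.663% of all probe sets. After a renewed quantile normalization the split was 682 to 476, and with arrays centred on their medians it was 969 to 156. Whole livers were measured, so more cells of a type and more RNA per cell cannot be told apart. The Y-linked genes *Eif2s3y*, *Kdm5d* and *Uty* read 8.92 to 9.57, 6.02 to 6.84 and 5.73 to 6.44 on the 20 arrays. *Xist*, which silences the second X chromosome in females, read 3.51 to 4.74. By these signals all 20 livers read as male.

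The arrays labelled wt_1386_4 and tg_1386_9 need a word before the results. The SD of their log2 difference over all probe sets was 0.155, the smallest of 190 array pairs, where the next pair across genotypes gave 0.228. The array labelled wt_1386_4 was also far above every other wt array in *H19* and *Igf2*. Its label could not be checked on *Igf2bp2*, which has no probe set of its own here, so it was kept as labelled and values are given with and without these arrays. The wt arrays wt_1407_2 and wt_1420_6 (SD 0.168) and wt_1407_5 and wt_1420_7 (SD 0.172) were also close to identical, and each pair was counted once in wt means (8 profiles). The study's methods give 10 mice per genotype, and the values alone do not say whether the arrays of a pair came from separate mice.

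*H19* and *Igf2* are neighbouring imprinted genes with opposite parental expression. *H19* is a long non-coding RNA made from the maternal allele, and *Igf2*, a fetal growth factor, is made from the paternal allele. Both use the same enhancers. A control region between the genes is methylated on the paternal allele and bound by the insulator protein CTCF on the maternal allele, which keeps the enhancers from *Igf2* there. *Mir675* is a microRNA cut from the first exon of the *H19* transcript. In mouse liver both genes are abundant before birth and are silenced in the weeks after it. The IMP proteins were named for their binding to *IGF2* mRNA, and IMP1 is also known to bind *H19* RNA.

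In the RefSeq annotation of GRCm38.p6, *H19* lies at chr7:142575530-142578146 on the minus strand. *Mir675*, at chr7:142577064-142577147, begins 999 bases from the 5′ end of the *H19* gene. *Igf2* lies at chr7:142650768-142666816, also on the minus strand, and 72.6 kb separate it from *H19*. The *Mir675* sequences from RefSeq are shown because the array cannot separate this microRNA from its host transcript: a higher signal of the shared probe set says nothing of how much mature microRNA was cut. The hairpin is printed 5′ to 3′ with its mature arms in capitals, and each arm with its seed, bases 2 to 8, in capitals.
Mir675 hairpin: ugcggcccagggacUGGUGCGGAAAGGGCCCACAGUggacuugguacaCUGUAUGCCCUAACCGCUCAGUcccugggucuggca
mmu-miR-675-5p: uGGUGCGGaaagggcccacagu
mmu-miR-675-3p: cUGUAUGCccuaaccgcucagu

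The arms have different seeds, and each seed is carried by 1 of the 1738 mature mouse sequences in the table, its own arm. Each arm is 22 bases long, and they come from chr7:142577112-142577133 (5p) and chr7:142577078-142577099 (3p).

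*Igf2* has 4 annotated start sites in the promoter table, and *H19* is not listed. Windows of 250 bases before to 50 after each *Igf2* start were searched on both strands for the TATA box TATAAA, the CCAAT box CCAAT and the GC box GGGCGG, which do not overlap each other in these windows. None held TATAAA, which is found in 13.6% of 32851 promoter windows. The start nearest to *H19* is shown because it held the most matches, 1 CCAAT box and 2 GC boxes. It is followed by its upstream neighbour, which held 1 GC box. Matches are in capitals, and those written ATTGG and CCGCCC lie on the opposite strand.
Igf2 start site 4, GRCm38.p6 chr7:142657447-142657746, minus strand: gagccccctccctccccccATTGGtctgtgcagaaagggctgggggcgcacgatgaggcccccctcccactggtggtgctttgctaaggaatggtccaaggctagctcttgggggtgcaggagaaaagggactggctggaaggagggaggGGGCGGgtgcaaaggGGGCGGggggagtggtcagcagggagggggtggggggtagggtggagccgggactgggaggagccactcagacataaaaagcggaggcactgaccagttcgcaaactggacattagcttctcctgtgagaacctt
Igf2 start site 3, GRCm38.p6 chr7:142658755-142659054, minus strand: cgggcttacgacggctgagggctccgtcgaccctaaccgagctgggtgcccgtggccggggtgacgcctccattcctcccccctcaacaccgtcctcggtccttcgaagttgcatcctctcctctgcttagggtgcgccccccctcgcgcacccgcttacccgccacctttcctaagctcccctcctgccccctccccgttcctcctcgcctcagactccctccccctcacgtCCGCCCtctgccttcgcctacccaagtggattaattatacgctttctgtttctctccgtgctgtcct

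CCAAT is found in 37.4% and GGGCGG in 35.7% of all promoter windows. The windows printed above have a GC content of 63.3% (start site 4) and 64.7% (start site 3), against a median of 52.7% over all promoters. Start site 3 has 24 CpG dinucleotides and start site 4 has 7, which is also the median of all promoters. The other *Igf2* windows, at chr7:142661222-142661521 and chr7:142666767-142667066, held none of these motifs. Which start sites were in use was not measured, since no probe set is tied to a start site.

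*H19* stood among the low signals in most wt livers and among the high signals in every tg liver. In tg livers the *H19* and *Mir675* probe set read 8.70 in tg_1420_12, 9.56 in tg_14231_6, 10.38 in tg_1371_2, 10.69 in tg_1423_2-8_4, 10.73 in tg_1386_9, 11.10 in tg_1407_9, 11.50 in tg_1423_2-8_1, 12.01 in tg_1420_14, 12.28 in tg_1407_3 and 12.98 in tg_1420_4. In wt livers it read 3.54 in wt_1423_2-8_9, 3.92 in wt_1407_5 and in wt_1420_6, 4.06 in wt_1423_2-8_3, 4.09 in wt_1407_2, 4.25 in wt_1371_4, 4.60 in wt_1420_7, 5.15 in wt_1420_1, 5.29 in wt_14231_2 and 10.42 in wt_1386_4. Apart from wt_1386_4, which was above 3 of the tg livers, the genotypes did not overlap, and a gap from 5.29 to 8.70 lay between them.

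The mean *H19* signal was 10.99 ± 1.28 (SD, n = 10) in tg and 5.12 ± 2.22 (SD, n = 8 profiles) in wt livers. The log2 difference in the limma fit over all 20 arrays was 6.07 (SE 0.688), the largest rise of all 45101 probe sets. Without tg_1386_9 and wt_1386_4 it was 6.71 (SE 0.446). The wt mean without wt_1386_4 was 4.36 ± 0.63 (SD, n = 7), below the median of all probe sets. The deposited values hold no detection calls, so wt signals this low are not shown to be above background, and the log2 differences are differences in signal from which no fold in RNA is given. 7 of 10 tg livers were above every wt liver, and 10 of 10 were above every wt liver other than wt_1386_4. Among the 3 member probe sets, only this 1 had all tg above all wt livers once tg_1386_9 and wt_1386_4 were set aside, as had 134 probe sets (0.297%) of the array. Since this contrast chose the members, nothing is read from that count.

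**Figure D1:**
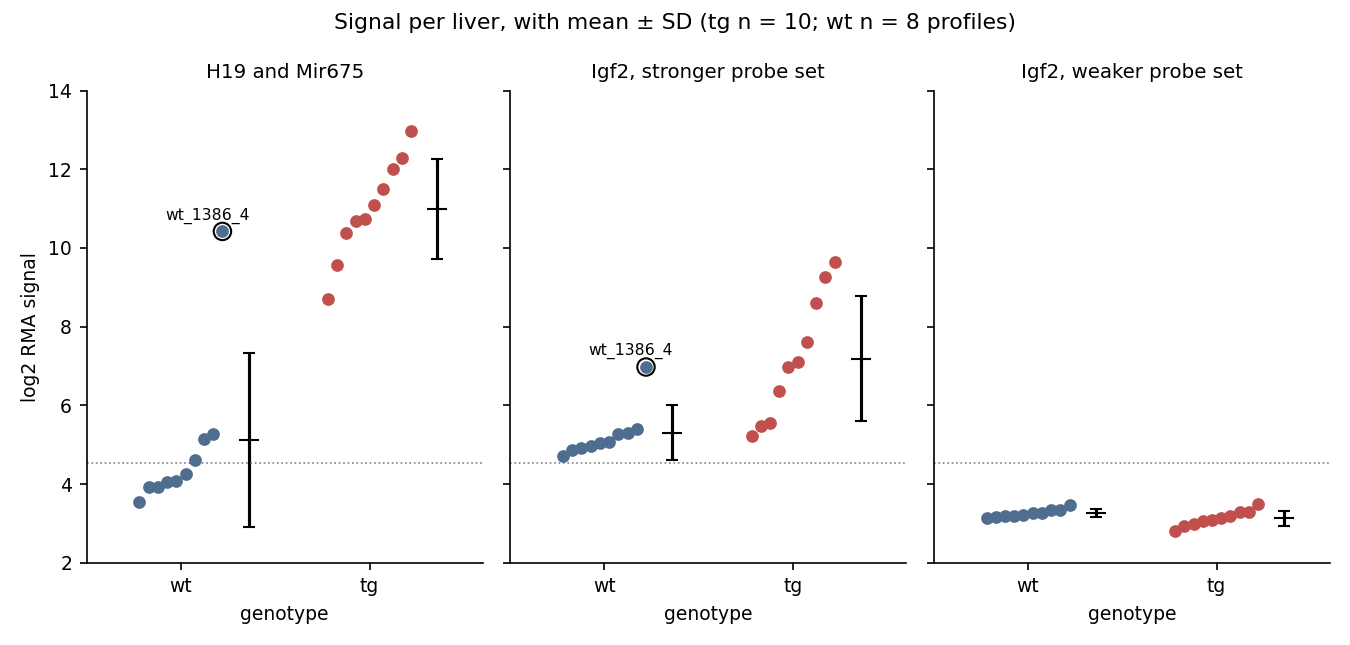
Log2 RMA signal (vertical axis) of the *H19* and *Mir675* probe set and both *Igf2* probe sets in each wt and tg liver (points, sorted within genotype), with mean ± SD beside them, wt over 8 profiles; the dotted line is the median of all probe set means, 4.53. *H19* points split by genotype apart from wt_1386_4 at 10.42, stronger *Igf2* points overlap, and the weaker *Igf2* probe set lies below the dotted line in all livers.

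*Igf2* differed less between genotypes than *H19*, and less evenly. In tg livers the stronger probe set read 5.23 in tg_1407_9, 5.48 in tg_1420_12, 5.56 in tg_14231_6, 6.36 in tg_1371_2, 6.98 in tg_1386_9, 7.11 in tg_1423_2-8_4, 7.62 in tg_1407_3, 8.59 in tg_1423_2-8_1, 9.27 in tg_1420_4 and 9.65 in tg_1420_14. In wt livers it read 4.72 in wt_1420_7, 4.87 in wt_1423_2-8_9, 4.92 in wt_1371_4, 4.97 in wt_1407_5, 5.06 in wt_14231_2, 5.07 in wt_1423_2-8_3, 5.27 in wt_1420_6, 5.29 in wt_1407_2, 5.39 in wt_1420_1 and 6.97 in wt_1386_4. The genotypes overlapped: tg_1407_9 lay within the wt range even when wt_1386_4 was set aside, and 3 tg livers stood below 6.

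The mean of the stronger *Igf2* probe set was 7.19 ± 1.59 (SD, n = 10) in tg and 5.30 ± 0.70 (SD, n = 8 profiles) in wt livers, or 5.06 ± 0.21 (SD, n = 7) without wt_1386_4. The log2 difference was 1.93 (SE 0.495), which ranked 24 among all rises. Without tg_1386_9 and wt_1386_4 it was 2.14 (SE 0.512). 6 of 10 tg livers were above every wt liver and 9 of 10 above every wt liver other than wt_1386_4. Among tg livers *Igf2* covered a log2 range of 4.41, about that of *H19* (4.28), while the 7 other wt profiles covered 0.55 in *Igf2* and 1.75 in *H19*.

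The weaker *Igf2* probe set carried little signal. It ran from 2.82 over a median of 3.11 to 3.51 in tg livers and from 3.13 over a median of 3.24 to 3.47 in wt livers, so the genotypes overlapped. The means were 3.13 ± 0.20 (SD, n = 10) and 3.26 ± 0.10 (SD, n = 8 profiles), with a log2 difference of -0.13 (SE 0.070). Both *Igf2* probe sets are annotated to the same gene and they did not move together: the stronger was higher in tg livers and the weaker, below the array median throughout, was not.

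Array names carry 6 numbers that occur in both genotypes, and *H19* was also compared within each. The log2 difference was 6.12 between tg_1371_2 and wt_1371_4, and 4.28 between tg_14231_6 and wt_14231_2. Between the means of several arrays it was 7.69 for tg_1407 and wt_1407, 6.67 for tg_1420 and wt_1420, and 7.30 for tg_1423_2-8 and wt_1423_2-8. Between tg_1386_9 and wt_1386_4 it was 0.31. Differences were thus positive for 6 of 6 numbers, and that of tg_1386_9 was far smaller than the others.

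For the stronger *Igf2* probe set the differences in the same order were 1.43, 0.50, 1.29, 3.004 and 2.88, and 0.01 between tg_1386_9 and wt_1386_4. The ranking was not the one of *H19*: tg_1407 livers had the largest difference in *H19*, while 3 other numbers had a larger difference in *Igf2*. The weaker *Igf2* probe set was higher in tg for 1 of 6 numbers, with differences from -0.53 to 0.04.

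**Figure D2:**
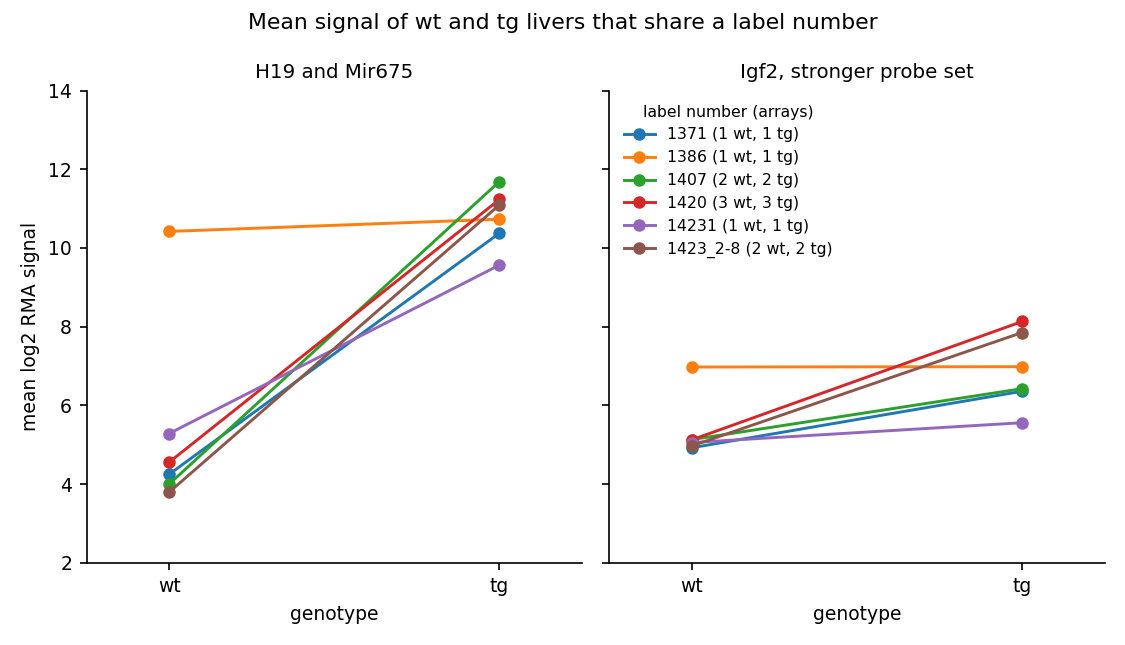
Mean log2 RMA signal (vertical axis) of wt and tg livers that share a label number (1 coloured line per number, arrays per genotype in the key), for *H19* and *Mir675* at left and the stronger *Igf2* probe set at right. All lines slope upward in *H19*, by 0.31 between wt_1386_4 and tg_1386_9 and by 4.28 to 7.69 otherwise, and *Igf2* lines by up to 3.004.

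Livers of a genotype were then compared with each other. The log2 difference between genotypes does not use this spread, although the SE and p of the limma fit do. In the 10 tg livers, *H19* and the stronger *Igf2* probe set were correlated with Pearson's r = 0.795 (permutation p = 0.00538, adjusted p = 0.0470 over 20 relations) and Spearman's rho = 0.745 (permutation p = 0.0168, adjusted p = 0.100). Without tg_1420_12 and tg_1420_4, the livers farthest from the *H19* median, r was 0.704 (exact permutation p = 0.0495, n = 8). When each tg liver was left out in turn r stayed between 0.731 and 0.896, and the adjusted p was below 0.05 in 4 of 10 cases. The relation was therefore positive in every subset run and near the threshold of its test.

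tg_1407_9 departed most from this order. Its *H19* signal of 11.10 was above the tg median of 10.91, while its *Igf2* signal of 5.23 was the lowest of all tg livers, and r was 0.896 without it. tg_1420_14 and tg_1420_4 held the top values of *Igf2*, and tg_1420_12, with the same label number, had the lowest *H19* signal of all tg livers.

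In wt livers r was 0.961 (exact permutation p = 0.0173, adjusted p = 0.0577, n = 8 profiles) and rho was 0.429. This relation rested on wt_1386_4, without which r was 0.467 (exact permutation p = 0.291, n = 7). After the means of genotype and of label number were removed from all 20 arrays, r between *H19* and *Igf2* was 0.738, given as a description. The weaker *Igf2* probe set, below the array median throughout, had r = 0.259 with *H19* in tg livers. Without tg_1420_12 and tg_1420_4 its r was 0.793 (exact permutation p = 0.0187, n = 8, not adjusted), so it hung on those livers.

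**Figure D3:**
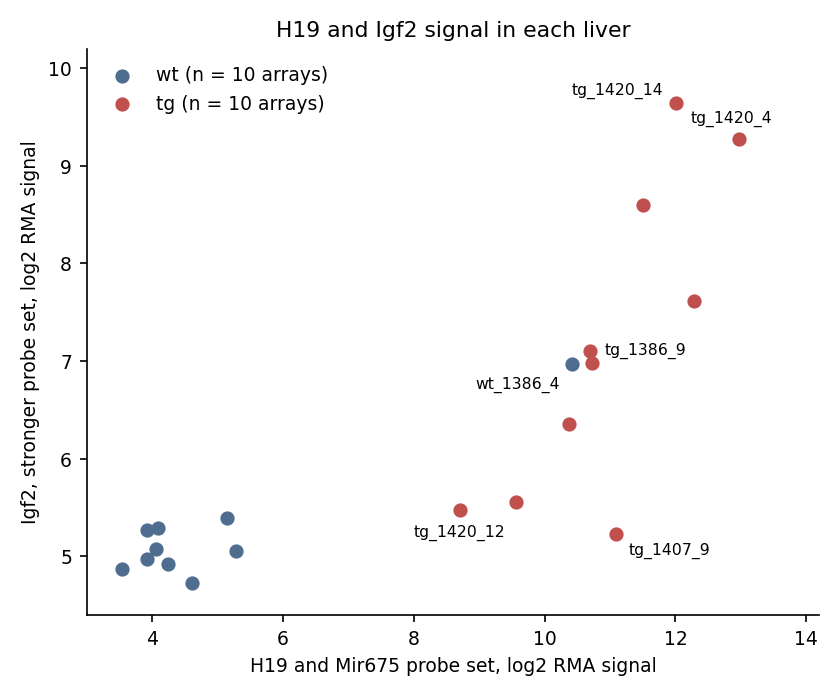
Log2 RMA signal of the stronger *Igf2* probe set (vertical axis) against that of the *H19* and *Mir675* probe set (horizontal axis), 1 point per array, tg in red and wt in blue, some arrays named. Wt points other than wt_1386_4 cluster at low signals, tg points spread upward to the right with r = 0.795, and tg_1407_9 lies lowest among tg in *Igf2*.

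*H19* was also set against *Afp*, *Bex1*, *Zhx2* and *Xist*. *Afp*, the fetal serum protein, had r = 0.730 with *H19* in tg livers (permutation p = 0.0164, adjusted p = 0.0577). In wt livers r was 0.878 (exact permutation p = 0.00704, adjusted p = 0.0470), and 0.624 without wt_1386_4. *Bex1* had r = 0.658 with *H19* in tg livers (permutation p = 0.0404, adjusted p = 0.115). Its r in wt livers was 0.947 (exact permutation p = 0.0983, adjusted p = 0.197), and -0.360 without wt_1386_4. *Zhx2*, a repressor that silences *H19* and *Afp* in liver after birth, had r = -0.11 with *H19* in tg livers (permutation p = 0.759). *Igf2* and *Xist* had r = 0.983 in wt livers (exact permutation p = 0.000521, adjusted p = 0.0104), and r = 0.890 without wt_1386_4 (exact permutation p = 0.00437, adjusted p = 0.0873). *Xist* signals were low on every array, with a median of 3.95, below the median of all probe set means. They are not shown to be above background, and all livers read as male. In tg livers *Igf2* had r = 0.173 with *Xist* (permutation p = 0.636). *H19* and *Xist* had r = 0.956 in wt livers (exact permutation adjusted p = 0.0531), and 0.617 without wt_1386_4.

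*Igf2* was not the gene most like *H19* among tg livers: 25 of 11774 genes above the array median had a higher r with it. The 5 highest were *H1f2*, a linker histone (r = 0.893), *Rad9a*, a DNA damage checkpoint protein (0.878), *Myo9a*, a myosin (0.871), *Arpc5l*, an actin nucleation subunit (0.858), and *Dynll1*, a dynein light chain (0.854). In the 7 wt profiles without wt_1386_4 their r was 0.416, 0.172, -0.650, 0.227 and 0.333. The genes most like *Igf2* were *Rap2c*, a small GTPase (r = 0.935), *Ssb*, the La RNA binding protein (0.929), *Plxna1*, a semaphorin receptor (0.929), *Ccdc90b* (0.914) and *Akr1c20*, an aldo-keto reductase (0.911). Their r in the same wt profiles was 0.434, 0.244, 0.177, 0.081 and 0.468. None of these 10 genes passed the genotype test, with limma adjusted p from 0.0667 to 0.991, although *Dynll1* passed with label number as a term (0.0411). So many genes were ranked over 10 livers that such values are a description of these livers.

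The genes around *H19* and *Igf2* did not share the size of their differences. Of 22 listed neighbours on chromosome 7, 21 had a probe set of their own, and 0 were higher and 1 lower in tg by limma. Over all 18194 genes, with 1 probe set for each, 542 were higher (2.98%) and 176 lower (0.967%). At an unadjusted p below 0.05, 4 neighbours were higher and 5 lower, where 13.0% of all genes were higher and 12.2% lower. The median log2 difference was -0.09 for the neighbours and -0.02 for all genes. These shares of all genes are the background for the lists that follow as well. *Trpm5*, a cation channel of taste cells, fell by 0.25 (SE 0.063, adjusted p = 0.0383) to 4.12 ± 0.17 in tg from 4.36 ± 0.08 in wt. It lay below the array median in both genotypes, kept its call in 9 of 20 fits that left out 1 array, and lost it when the near-identical wt arrays were averaged.

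Genes right beside the members had small differences: *Mrpl23*, a mitochondrial ribosomal protein, -0.04 (SE 0.054, adjusted p = 0.731) and *Ins2*, an insulin gene, -0.14 (SE 0.061, adjusted p = 0.186). *Igf2os*, the antisense transcript of *Igf2* and outside the list, which was looked up after its values were seen, had a difference of -0.03 (adjusted p = 0.879). The imprinted cluster at the far end of the region, which a separate control region governs, held the highest positive values. *Phlda2*, a placental growth restrainer, had a difference of 1.03 (SE 0.329, adjusted p = 0.0871, and 0.0432 with label number as a term). *Cdkn1c*, a cell cycle inhibitor, had 0.76 (SE 0.297, adjusted p = 0.152), with tg livers at 5.77 ± 0.999 and wt at 5.04 ± 0.24. *Slc22a18*, a transporter, had 0.45 (SE 0.152, adjusted p = 0.102), and *Kcnq1ot1*, the non-coding RNA of that control region, 0.10 (SE 0.112, adjusted p = 0.646).

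**Figure D4:**
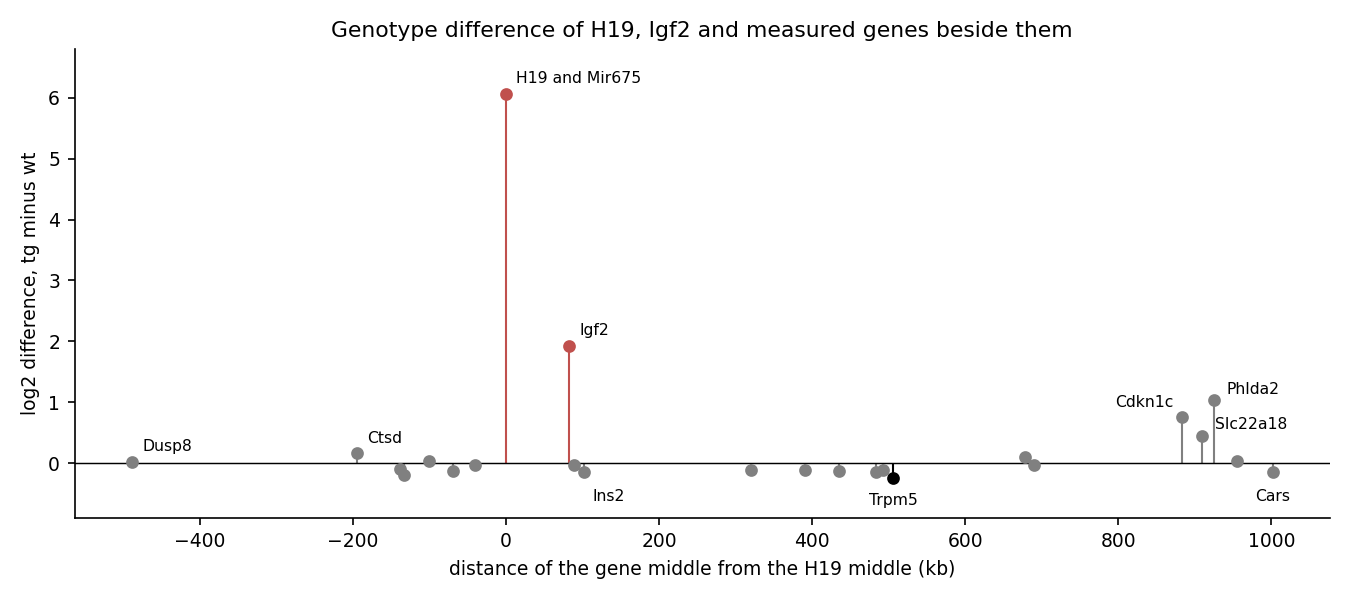
Log2 difference between tg and wt livers (vertical axis) for *H19* with *Mir675*, the stronger *Igf2* probe set (red), *Igf2os* and 21 listed neighbours (grey, or black where called), against the distance of each gene's middle from that of *H19* in kb (horizontal axis, build GRCm38.p6). *H19* stands at 6.07 and *Igf2* at 1.93, while the neighbours lie between -0.25 (*Trpm5*, called) and 1.03 (*Phlda2*, not called).

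Genes that receive the IGF2 signal did not pass the test. Of 25 listed receptors, binding proteins and signalling genes, 23 were measured, and limma called 0 higher and 0 lower. At an unadjusted p below 0.05, 1 was higher and 0 lower, against 13.0% and 12.2% of all genes. The median log2 difference was 0.02. *Igf2r*, the receptor that clears IGF2, differed by 0.13 (SE 0.120, adjusted p = 0.555). *Igf1r*, the receptor that signals for it, differed by 0.02 (SE 0.074, adjusted p = 0.908). The largest difference was that of *Grb10*, an imprinted adaptor that dampens insulin and IGF receptors: tg livers were at 7.16 ± 1.29 and wt livers at 6.02 ± 0.39, a difference of 1.17 (SE 0.389, adjusted p = 0.0976). With label number as a term, *Grb10* (adjusted p = 0.0497) and *Pik3r1*, a PI3 kinase subunit (0.28, adjusted p = 0.0345), were called.

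Of 30 listed regulators of the locus, 27 were measured. On the probe set with the highest mean, limma called none of them (0 genes). At an unadjusted p below 0.05, 4 were higher and 4 lower (13.0% and 12.2% of all genes), and the median log2 difference was 0.01. *Ctcf*, the insulator protein, differed by -0.02 (SE 0.050, adjusted p = 0.839) and *Zhx2* by -0.05 (SE 0.065, adjusted p = 0.691). The largest difference was in *Uhrf1*, which guides DNA methylation to newly copied strands, with 4.49 ± 0.63 in tg and 3.83 ± 0.18 in wt livers (0.68, SE 0.192, adjusted p = 0.0583). Its means in tg and in wt livers were below the array median. With label number as a term, 3 genes were higher, namely *Uhrf1* (adjusted p = 0.0329), the maintenance methyltransferase *Dnmt1* (0.30, adjusted p = 0.0381) and *Plagl1* (0.51, adjusted p = 0.00614), an imprinted transcription factor that binds the *H19* and *Igf2* enhancers. *Mbd3*, a repressor complex subunit, was lower there (-0.25, adjusted p = 0.0367). In the fit without label number, limma did call 1 of the 3 *Dnmt1* probe sets, other than the one counted here. Without tg_1386_9 and wt_1386_4 limma called 1 regulator.

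Of 18 listed genes whose products bind *H19* or *Igf2* RNA or make microRNAs, 17 were measured. By limma 0 of them were called on the probe set with the highest mean. At an unadjusted p below 0.05, 3 were higher and 2 lower (13.0% and 12.2% of all genes), and the median was 0.01. Other probe sets of some of these genes did pass: limma called 1 of 3 for *Drosha* and 1 of 2 for *Xpo5*. *Drosha*, the nuclease that cuts microRNA hairpins such as that of *Mir675* from their transcripts, had the largest difference, 0.66 (SE 0.187, adjusted p = 0.0592), from 6.94 ± 0.10 in wt to 7.58 ± 0.63 in tg livers. With label number as a term *Drosha* (adjusted p = 0.0377) and *Ago1*, an Argonaute protein (0.21, adjusted p = 0.0387), were called. Without tg_1386_9 and wt_1386_4 limma called 2 genes of the list, 1 higher and 1 lower. These were *Ago1* (0.22, adjusted p = 0.0462) and *Tarbp2*, lower in tg (-0.24, adjusted p = 0.0411), while *Drosha* was not called (adjusted p = 0.0519). *Igf2bp1*, which encodes IMP1, differed by -0.13 (SE 0.057, adjusted p = 0.197). *Igf2bp3*, which encodes IMP3, differed by 0.19 (SE 0.096, adjusted p = 0.255), but 2 of its 6 probe sets were called. *Igf2bp2* itself, with no probe set of its own, was not analysed here.

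All 7 genes reported as *Mir675* targets were measured, and limma called 1 higher and 0 lower, against 2.98% and 0.967% of all genes. An unadjusted p below 0.05 was found for 2 higher and 0 lower genes, against 13.0% and 12.2% of all genes, and the median was 0.15. Counts this small in a list of 7 are not read as a difference from the background. *Cdc6*, which licenses DNA replication origins, rose by 0.52 (SE 0.128, adjusted p = 0.0362), from 2.57 ± 0.15 in wt to 3.08 ± 0.41 in tg livers. Both means lie below the array median, and the call held in 6 of 20 fits that left out 1 array. *Tgfbi*, a matrix protein, differed by 0.40 (SE 0.151, adjusted p = 0.136) and was called with label number as a term (0.0494). Signals of these genes say nothing on whether the microRNA acted on them.

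Imprinted genes that are reported to share a growth-linked network with *H19* and *Igf2* were all measured. Of these 14, limma called 2 higher and 0 lower, against 2.98% and 0.967% of all genes. At an unadjusted p below 0.05, 7 were higher and 0 lower, against 13.0% and 12.2% of all genes, and the median was 0.13. No test set the list against other genes. *Peg3*, a paternally expressed zinc finger gene, rose by 1.56 (SE 0.297, adjusted p = 0.00998), from 5.92 ± 0.66 in wt to 7.42 ± 0.78 in tg livers. *Sgce*, a paternally expressed sarcoglycan, rose by 0.70 (SE 0.124, adjusted p = 0.00562), from 5.65 ± 0.22 to 6.36 ± 0.36. Both were above the wt median in 10 of 10 tg livers and were called in 20 of 20 fits that left out 1 array. Without the 4 arrays named tg_1423_2-8 and wt_1423_2-8 neither was called (adjusted p = 0.105 for both). *Meg3*, a maternally expressed non-coding RNA, had a difference of 1.06 (SE 0.335, adjusted p = 0.0833), and *Dlk1*, its paternally expressed neighbour, 0.03 (SE 0.083, adjusted p = 0.870). With label number as a term 4 genes of the list were called, *Plagl1* and *Grb10* beside the other two.

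**Figure D5:**
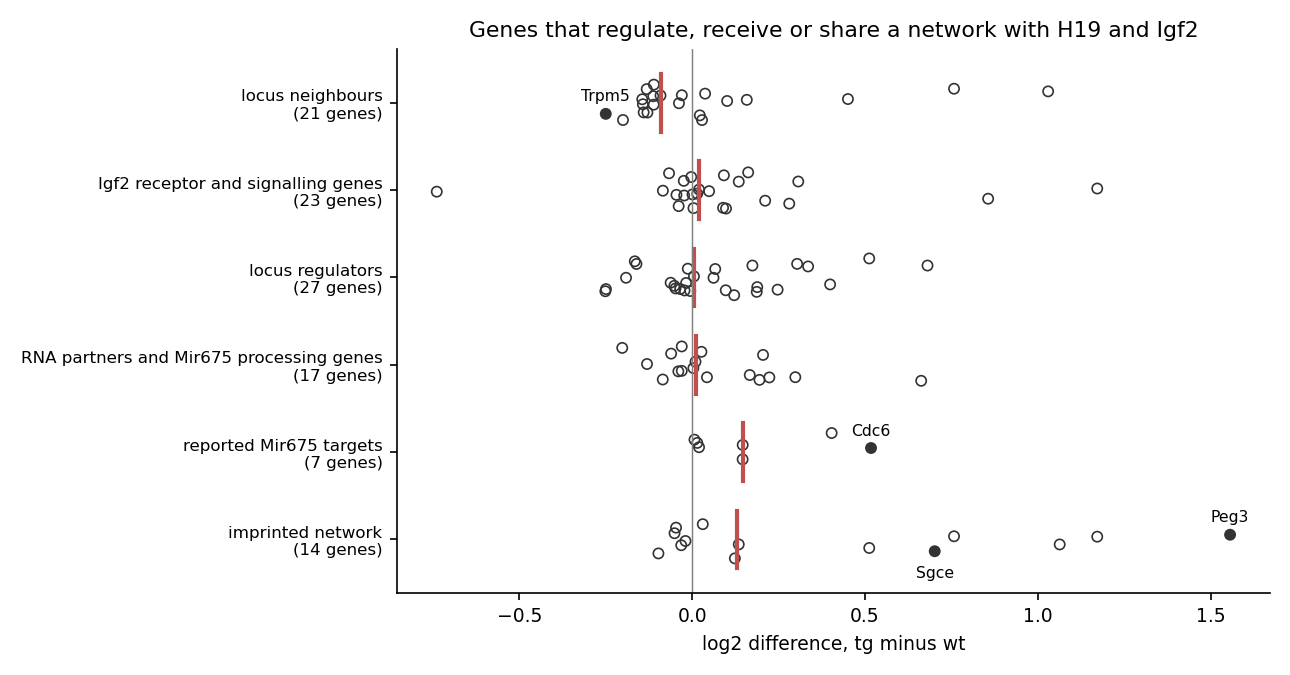
Log2 difference between tg and wt livers (horizontal axis) of the measured genes in 6 lists tied to *H19*, *Mir675* and *Igf2* (vertical axis), 1 circle per gene, filled where limma called it and named there, with a red bar at each list's median; vertical scatter within a list has no meaning and a gene may be in more than 1 list. The called genes are *Trpm5*, *Cdc6*, *Peg3* and *Sgce*, and list medians lie between -0.09 and 0.15.

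Markers of cell types other than hepatocytes were read because *H19* and *Igf2* are also expressed in muscle and mesenchymal cells. The 7 hepatocyte markers had a mean log2 signal of 13.47 to 13.75 over tg and 13.50 to 13.70 over wt livers, and 0 differed by limma. The 7 skeletal muscle markers ran from 3.93 to 4.16 in tg and from 4.12 to 4.48 in wt livers, so they were not higher in tg. 4 of them, *Myh4*, *Myh1*, *Tnnt3* and *Actn3*, were below the array median. The 6 mesenchymal markers ran from 7.76 to 8.66 in tg and from 7.64 to 8.07 in wt livers, and 0 were called. All 6 log2 differences were positive, from 0.12 (*Dcn*) to 0.39 (*Col3a1*). Their median was 0.18, against -0.02 for all genes. Cholangiocyte markers (5 of 6 measured) ran from 3.81 to 4.32 in tg and from 3.81 to 4.20 in wt livers with 0 called, and 4 of them, *Krt19*, *Krt7*, *Epcam* and *Cftr*, were below the array median. Of 5 endothelial markers, with a mean of 6.06 to 6.63 in tg and 5.63 to 6.33 in wt livers, 1 was called: *Lyve1*, a hyaluronan receptor of sinusoidal and lymphatic endothelium, was higher in tg by 0.995 (SE 0.219, adjusted p = 0.0214). The others, not called, differed by 0.05 (*Stab2*), 0.06 (*Cdh5*), 0.09 (*Kdr*) and 0.23 (*Pecam1*, below the array median). Erythroid and pancreas markers (3 of 5 measured in each list) had 0 called. The part of mesenchymal or endothelial cells in the *H19* and *Igf2* values was not tested.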

How the data were processed

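RNA of 20 livers (10 tg, 10 wt) was hybridised to Affymetrix mouse arrays. Per the labels the authors normalized by RMA, and the deposited values are on the log2 scale, in 45101 probe sets by 20 columns. Every column has a sample (0 unmatched). No source used here gives the RMA version. Arrays carry no read depth, so the number of livers limits the precision. Symbols came from the annotation supplied for the array. Of the probe sets 34958 had 1 symbol, 932 several and 9211 none.

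limma 3.58.1 in R 4.3.3 fitted genotype to all 20 arrays with default empirical Bayes. Adjusted p values follow Benjamini and Hochberg across the whole array (threshold 0.05), and SEs are those of the moderated fit. A gene is represented by the probe set of its own with the highest mean. Correlations used scipy 1.17.1 in Python 3.11.15, two-sided, with 100000 permutations for n = 10 and all permutations below, adjusted over 20 relations. On simulated data for tg against wt with 45101 probe sets, the fit found 81 of 100 probe sets changed by 0.5 on the log2 scale. It found 99 of 100 changed by 1 and made 11 false calls. The simulated arrays were independent, with normal noise and 1 SD per probe set for both genotypes. The real set holds near-identical arrays and unequal SDs, as in *Grb10* (1.29 in tg, 0.39 in wt). These counts therefore need not hold for the real arrays.

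The members and lists were chosen with earlier results of these data known. Named genes are the members, list genes that passed or, where none did, the largest difference, genes always named (*Igf2r*, *Igf1r*, *Zhx2*, *Igf2bp1*, *Igf2bp3*, *Cdkn1c*), and the 5 genes most like *H19* and *Igf2* each in tg livers. Others were named after their values were seen. The study's methods give 10 mice per genotype. limma kept the near-identical wt arrays as separate mice, and the closing section gives counts with each pair averaged.

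Label numbers shared by both genotypes, which no source used here explains, served as a check of pairing. Residuals of same-numbered arrays correlated by 0.184 to 0.404 over 6 numbers, own number highest in 5 of 6. The value for 1386, 0.382, is that of the closest array pair, and the near-identical wt pairs carried different numbers. limma's consensus correlation within label number was only 0.082. Values with label number as a block are given where they change a call. Other alternatives were a random block, the *Xist* signal as a covariate, other scalings, other probe sets per gene, averaged wt pairs and arrays left out singly or in groups. Sequences are from RefSeq (GRCm38.p6). Of the 3 members, 1 matched the promoter table and 1 the microRNA table.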

Additional observations from a re-analysis of the deposited data

Results flagged for a closer look

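Among 26 named probe sets, each tested in both genotypes (52 groups), 6 had a highest or lowest liver that stood apart from the rest by Dixon's ratio of gap to range, where chance alone gives about 1 in 20 groups. The array labelled wt_1386_4 was the top wt liver in *H19* and *Mir675* (10.42, next 5.29, ratio 0.746) and in *Igf2* (6.97, next 5.39, ratio 0.743). In *Cdc6*, wt_1423_2-8_9 was the top wt liver (2.91, next 2.60, ratio 0.658). In *Zhx2*, the averaged wt_1407_2 and wt_1420_6 were the top wt profile (6.14, next 5.90, ratio 0.606). In *Sgce*, tg_1420_4 was the top tg liver (7.14, next 6.57, ratio 0.487). In *Myo9a*, wt_14231_2 was the lowest wt liver (5.19, next 5.52, ratio 0.623).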

How the results depend on the processing

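The differences of the member probe sets kept their direction in all 30 alternatives run for each, with *H19* at 5.76 to 6.75, the stronger *Igf2* probe set at 1.44 to 2.15 and the weaker at -0.17 to -0.10. The ends of the first ranges came without tg_1420_4, tg_1423_2-8_1 and tg_1423_2-8_4 (5.76 and 1.44). Counts of called genes moved far more than the members did, and the cause was not tested.

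With label number as a replicate block, 1634 probe sets were higher and 607 lower, and calls rose to 2 locus neighbours, 2 IGF2 signalling genes, 4 regulators, 2 RNA partners, 2 *Mir675* targets and 4 imprinted network genes. The block ended no call of a named list gene. As a random block it gave 1249 higher, 542 lower, 3 regulators and 2 RNA partners. A renewed quantile normalization gave 682 higher and 476 lower, and median centring 969 higher, 156 lower and 1 RNA partner. Averaging near-identical wt pairs gave 245 higher, 31 lower, 0 neighbours and 0 targets. Leaving out tg_1386_9 and wt_1386_4 gave 1209 higher, 484 lower, 1 regulator and 2 RNA partners. Leaving out the 4 arrays of tg_1423_2-8 and wt_1423_2-8 gave 69 higher, 5 lower and 0 neighbours, targets and imprinted network genes. Leaving out tg_1420_4, tg_1423_2-8_1 and tg_1423_2-8_4 gave 158 higher, 8 lower, 0 neighbours, 0 targets and 1 imprinted network gene. Among probe sets above the median mean, 0 neighbours, 2 regulators, 2 RNA partners and 0 targets were called, and with the probe set of largest spread per gene, 1 regulator and 2 RNA partners.

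Leaving out each array in turn gave 391 to 1684 higher and 72 to 776 lower probe sets, 0 to 2 neighbours, 0 to 3 regulators, 0 to 2 RNA partners, 0 to 1 targets, 2 to 3 imprinted network genes and 0 IGF2 signalling genes. *H19* then differed by 5.85 to 6.68 and *Igf2* by 1.66 to 2.15, or by -0.17 to -0.10 in its weaker probe set.

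The correlation of *H19* and *Igf2* in tg livers stayed positive but its adjusted permutation p was above 0.05 as Spearman's rho (0.745), without the 2 farthest livers (0.704), without tg_1420_4, tg_1423_2-8_1 and tg_1423_2-8_4 (0.718), without the tg_1423_2-8 arrays (0.802) and without tg_1386_9 (0.795). With single arrays left out r was 0.731 to 0.896 in tg, and the adjusted p was above 0.05 without tg_1371_2, tg_1386_9, tg_1420_12, tg_1420_4, tg_1423_2-8_1 or tg_14231_6. In wt r was 0.467 to 0.976, the lowest without wt_1386_4.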
